A study of Rattus norvegicus with 18 samples.

Results

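The Müller glia homeostatic genes measured here were a list of 10 genes matched by symbol: Glul, Slc1a3, Kcnj10, Aqp4, Car2, Sox9, Sox2, Hes1, Dkk3 and Cd44. All 10 were found, among 32285 genes in the retina table and 32552 genes in the RPE/choroid table. The series holds 18 bulk RNA libraries from WT Fischer344 rats, which were all female, taken from neural retina and from RPE/choroids, the pigment epithelium with the vascular layer behind it. In each tissue there were 3 libraries from untreated young rats aged 4 months, 3 from untreated aged rats of 24 months and 3 from aged rats of 24 months that had received 8-AG (8-aminoguanine, a purine base) in drinking water at 5 mg/kg daily for 8 weeks from 22 months of age, while the untreated aged rats drank water only. The strain ages with loss of photoreceptors, so that untreated aged retinae are a degenerating tissue. The study asked how aging changes both tissues and whether oral 8-AG changes the aged ones. Each library gives 1 level per gene, in CPM, the counts scaled to a common library size by TMM over the 9 libraries of a tissue. Whether the libraries of a group came from separate animals is not stated per library, and p-values measure the spread between these libraries. In RPE/choroid, the labels of young libraries 1 and 2 have the same number with L in one and R in the other, as do those of aged libraries 1 and 2, and each pair may come from 1 rat.

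Müller glia are the radial glial cells that span the whole neural retina. They clear glutamate from the synaptic layers and return it to neurons as glutamine, move potassium and water away from active neurons, buffer pH by carbonic anhydrase, and keep a set of progenitor transcription factors. After injury or in degeneration they respond with gliosis, in which intermediate filament proteins such as GFAP appear along the cell. In bulk libraries a lower level of a gene can come from fewer cells of a type or from less RNA per cell, and these cannot be told apart.

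Sequences upstream of Glul and Hes1 are shown because Glul was the member that fell furthest in aged retina and Hes1 the member with the widest spread on the log2 scale among the 9 retina libraries. Both come from RefSeq on build GRCr8, which is not the build of the count tables, and each covers the 250 bases before an annotated start, 5′ to 3′ on the strand of the gene. Glul has 2 such starts, with upstream windows at chr13:68519250-68519499 and chr13:68575816-68576065 on the plus strand, and the Hes1 window is chr11:84213046-84213295 on the minus strand. Capitals mark matches, on either strand, to TGGGAA, the core that the Notch effector RBPJ binds, and to CCAAT, the box bound by NF-Y.
Glul, first start: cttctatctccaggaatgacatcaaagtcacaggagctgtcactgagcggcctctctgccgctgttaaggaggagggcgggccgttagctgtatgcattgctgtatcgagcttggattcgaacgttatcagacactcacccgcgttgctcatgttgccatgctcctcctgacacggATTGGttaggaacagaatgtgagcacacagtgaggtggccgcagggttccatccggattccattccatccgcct
Glul, second start: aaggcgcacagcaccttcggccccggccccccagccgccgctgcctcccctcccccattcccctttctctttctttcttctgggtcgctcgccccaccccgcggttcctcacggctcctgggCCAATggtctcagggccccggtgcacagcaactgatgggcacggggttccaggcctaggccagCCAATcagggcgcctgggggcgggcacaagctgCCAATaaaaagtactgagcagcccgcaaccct
Hes1: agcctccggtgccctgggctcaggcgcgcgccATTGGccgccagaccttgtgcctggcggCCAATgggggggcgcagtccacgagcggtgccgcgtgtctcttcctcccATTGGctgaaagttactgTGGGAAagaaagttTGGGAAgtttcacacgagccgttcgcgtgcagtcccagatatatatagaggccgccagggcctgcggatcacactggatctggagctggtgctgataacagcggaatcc
The first Glul window held 1 CCAAT match and the second held 3, whose first bases lie at -128, -65 and -32 from the start. The Hes1 window held 2 RBPJ matches, at -123 and -109, and 3 CCAAT matches, at -218, -190 and -141. No match overlapped another. Of 33469 rat promoter windows of the same length, 22.1% held TGGGAA and 34.0% held CCAAT. Neither gene's windows held ACAAT (the SOX core, in 30.0% of all windows), TTCNNNGAA (the STAT site, in 7.67%) or TATAAA (in 12.9%), all searched on both strands. A match is a description of letters and not a measured site.

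The retina libraries held 12283458 to 15644346 counts and the RPE/choroid libraries 28573828 to 48203050. In retina the members were well above the counting limit, from 114 to 343 counts per library for Hes1 up to 22802 to 39722 counts for Glul. Retina libraries differed in other ways than age. The rod photoreceptor list summed to 59409 to 64756 CPM in young retina, 37053 to 42312 CPM in aged retina and 38042 to 50366 CPM with 8-AG. Rpe65, the isomerase of the pigment epithelium, was at 2.18 to 18.5 CPM in young, 4.59 to 41.1 CPM in aged and 24.4 to 63.3 CPM in 8-AG-treated retina. The sums of 7 lens genes were 2537, 5296 and 124 CPM for young retina libraries 1 to 3, between 13.5 and 19.3 CPM for aged ones, and 1609 CPM for 8-AG library 1. The 3 retina libraries of the 8-AG group carry the label total RNA where all other libraries carry polyA RNA, although the protocol text describes poly-A capture for all retina libraries. The part of these differences in the members' values was not tested.

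**Figure D1:**
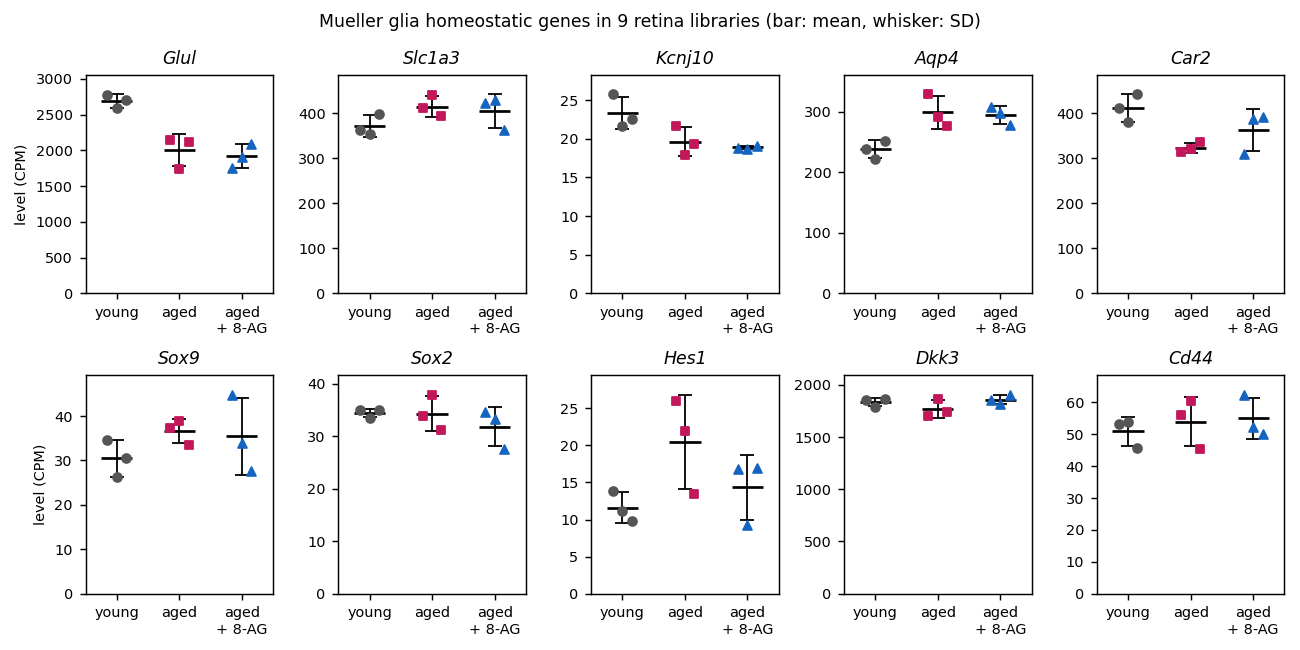
Levels of the 10 members in the 9 retina libraries, in CPM on axes that start at 0, with 1 point per library, bars at the mean and whiskers for the SD (n = 3 per group). Every young library lies above every aged one for Glul, Kcnj10 and Car2 and below every aged one for Aqp4, and no member separates the 8-AG-treated from the untreated aged libraries.

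In aged against young retina, Glul and Car2 fell, Aqp4 rose, and the other 7 members did not pass the test. By edgeR's quasi-likelihood test with Benjamini-Hochberg adjustment over 14588 genes, 3 of the 10 members had an adjusted p under 0.05, against 14.5% of all genes tested. Of these 1 was higher, beside 7.29% of all genes, and 2 were lower, beside 7.26%, and 7 members had an unadjusted P under 0.05, beside 29.2%. By the study's rule for differentially expressed genes, which asks for more than 1.5-fold and an unadjusted P under 0.05, 1 member counted as changed, Hes1, against 8.84% of all genes. Young and aged libraries did not overlap for 4 members, beside 35% of all genes, and 1 of these was higher and 3 lower, beside 17.5% of all genes in either direction. The members went both ways, 5 higher and 5 lower, with log2 fold changes from -0.42 to 0.82 and a median of 0.04, where the median over all genes was 0.00. Summed, the 10 genes took 5481 to 5800 CPM in young, 4832 to 5072 CPM in aged and 4828 to 5169 CPM in 8-AG-treated retina.

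Glul (ENSRNOG00000049560) encodes glutamine synthetase, which turns glutamate and ammonia into glutamine and in retina is found in Müller glia. It was at 2773, 2590 and 2703 CPM in the young retina libraries, at 2145, 1740 and 2112 CPM in the aged ones and at 1752, 1912 and 2091 CPM with 8-AG. Every aged and every treated library lay below every young one, and the treated libraries lay within the range of the untreated aged ones. The mean fell from 2688 ± 92.4 CPM to 1999 ± 225 CPM (SD, n = 3), a log2 fold change of -0.42 (SE 0.08, edgeR adjusted p = 0.0090). Fits that each left out a library kept it between -0.48 and -0.33, with adjusted p-values from 0.0060 to 0.044.

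Slc1a3 (ENSRNOG00000016163) encodes GLAST, the main glutamate transporter of Müller glia, which supplies the substrate of glutamine synthetase. Its levels were 363, 353 and 399 CPM in young, 411, 440 and 393 CPM in aged and 423, 429 and 362 CPM in 8-AG-treated retina. The lowest aged library lay just below the highest young one, so the groups overlapped. The log2 fold change of aged against young was 0.16 (95% interval 0.01 to 0.31, edgeR adjusted p = 0.14), so that the transporter and the enzyme of the same pathway had values of opposite sign.

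Kcnj10 (ENSRNOG00000007705) encodes Kir4.1, the inward rectifier channel through which Müller glia take up and release potassium. It was at 25.7, 21.7 and 22.6 CPM in young, 21.7, 17.9 and 19.3 CPM in aged and 18.8, 18.7 and 19.1 CPM in 8-AG-treated retina. The highest aged library lay only narrowly below the lowest young one, and the treated libraries were close together at the lower end of the aged range. The log2 fold change of aged against young was -0.25 (SE 0.10, edgeR unadjusted P = 0.040, adjusted p = 0.15), which did not pass the adjusted threshold.

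Aqp4 (ENSRNOG00000016043) encodes the water channel that sits with Kir4.1 in the end feet of Müller glia and astrocytes. Its levels were 239, 222 and 252 CPM in young, 329, 291 and 277 CPM in aged and 308, 298 and 278 CPM in 8-AG-treated retina. All 6 aged libraries, treated or not, lay above all young ones. Aqp4 rose from 238 ± 14.9 to 299 ± 26.7 CPM (SD, n = 3), a log2 fold change of 0.33 (SE 0.08, edgeR adjusted p = 0.018). Leaving out young library 1 gave 0.34 with an edgeR adjusted p of 0.061, in a fit where 8.98% of all genes passed. Leaving out young library 2 gave 0.29 with 0.081, where 8.38% passed. These 2 young libraries had the highest lens gene sums, and the part of lens RNA in the values of Aqp4 was not tested.

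Car2 (ENSRNOG00000009629) encodes carbonic anhydrase 2, the cytosolic enzyme that interconverts carbon dioxide and bicarbonate, and which some neurons of the retina also hold. It was at 411, 380 and 441 CPM in young, 313, 320 and 335 CPM in aged and 309, 386 and 391 CPM in 8-AG-treated retina. No aged library reached the level of a young one, whereas 2 of the 3 treated libraries lay above all untreated aged libraries and overlapped the young range. Car2 fell from 411 ± 30.5 to 323 ± 11.3 CPM (SD, n = 3), a log2 fold change of -0.35 (SE 0.06, edgeR adjusted p = 0.0065). Leaving out any of the 6 libraries kept the value between -0.40 and -0.30 and the adjusted p between 0.011 and 0.034.

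Among the transcription factors, Hes1 (ENSRNOG00000001720), a repressor that Notch signalling switches on, had the largest difference. It was at 13.9, 11.1 and 9.80 CPM in young, 26.0, 21.9 and 13.5 CPM in aged and 16.8, 9.27 and 17.0 CPM in 8-AG-treated retina. Aged library 3 lay inside the young range and the other 2 aged libraries above it. The log2 fold change of aged against young was 0.82 (SE 0.27, edgeR unadjusted P = 0.020, adjusted p = 0.096), past the study's rule but not the adjusted threshold. It rested on which libraries entered: without aged library 3 it was 1.05 (adjusted p = 0.0054), and without young library 2, young library 3 or aged library 2 it was at 0.80, 0.70 and 0.77, still past the fold but no longer past the unadjusted P of the study's rule.

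Sox9 (ENSRNOG00000002607), an HMG-box factor that Müller glia keep from the progenitor stage, was at 34.7, 26.3 and 30.6 CPM in young, 37.3, 39 and 33.6 CPM in aged and 44.8, 33.8 and 27.6 CPM in 8-AG-treated retina. One aged library overlapped the young range, and the treated libraries spread over the ranges of both other groups. Its log2 fold change of aged against young was 0.26 (SE 0.11, edgeR unadjusted P = 0.034, adjusted p = 0.13). Sox2 (ENSRNOG00000012199), a related factor that Müller glia share with some amacrine cells and astrocytes, was at 34.9, 33.5 and 34.9 CPM in young, 33.8, 37.9 and 31.2 CPM in aged and 34.6, 33.3 and 27.5 CPM in 8-AG-treated retina. The 3 groups of Sox2 overlapped, and the aged against young value was 0.00 on the log2 scale (95% interval -0.19 to 0.19, edgeR adjusted p = 0.99).

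The remaining members act outside the cell or at its surface. Dkk3 (ENSRNOG00000016343), a secreted glycoprotein of the Dickkopf family, was at 1852, 1789 and 1861 CPM in young, 1700, 1864 and 1737 CPM in aged and 1858, 1812 and 1905 CPM in 8-AG-treated retina. Dkk3 varied least of the members over the 9 libraries, with an SD of 0.05 on the log2 scale, against 0.50 for Hes1. Its log2 fold change of aged against young was -0.05 (95% interval -0.18 to 0.08, edgeR adjusted p = 0.62). Cd44 (ENSRNOG00000006094), the hyaluronan receptor on the apical processes of Müller glia, was at 53.2, 53.9 and 45.7 CPM in young, 56.2, 60.4 and 45.3 CPM in aged and 62.4, 52.4 and 50.1 CPM in 8-AG-treated retina. The groups overlapped, and the log2 fold change of aged against young was 0.09 (95% interval -0.18 to 0.35, edgeR adjusted p = 0.67).

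**Figure D2:**
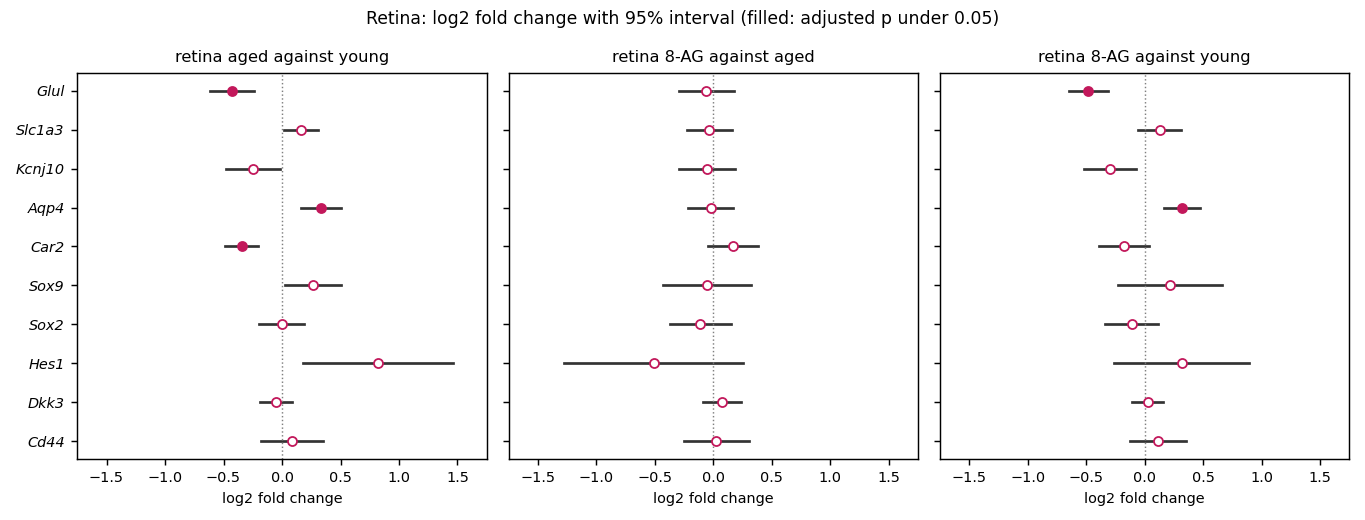
Log2 fold changes of the 10 members in the 3 retina comparisons, with 95% intervals from the edgeR fit, filled points marking an adjusted p under 0.05. Glul, Aqp4 and Car2 are filled in aged against young, Glul and Aqp4 in 8-AG-treated aged against young, and no member in 8-AG-treated against untreated aged retina.

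The other genes of Müller glia and of these pathways were read as lists in aged against young retina, where 7.29% of all genes tested passed as higher and 7.26% as lower. Of 15 tested genes of glutamate and glutamine handling other than the members, 6 had an adjusted p under 0.05 by edgeR and all 6 were lower. Of the 15, 5 values were above 0 and 10 below, with a list median of -0.13. Slc38a3, the transporter that exports glutamine from glia, fell from 544 ± 12.0 to 313 ± 31.5 CPM (SD, n = 3), a log2 fold change of -0.80 (adjusted p = 2.4e-04). Slc17a7, the vesicular glutamate transporter of photoreceptors and bipolar cells, was at -0.50 (adjusted p = 9.9e-04), Slc1a7, a glutamate transporter of photoreceptors and bipolar cells, at -0.47 (adjusted p = 0.0022), and Got1, the cytosolic aspartate aminotransferase, at -0.46 (adjusted p = 8.3e-04). Slc17a7 and Slc1a7 are neuronal, and the rod list fell alongside: 11 of its 14 tested genes passed the test, all lower, with a median of -0.68. The part of rod loss in the glutamate list was not tested.

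Of 21 tested genes for ions, water and pH other than the members, 2 passed the test as higher and 4 as lower, with a list median of -0.08. Aqp1, a water channel of photoreceptors and some amacrine cells, fell from 153 ± 19.7 to 61.3 ± 5.52 CPM (SD, n = 3), a log2 fold change of -1.32 (edgeR adjusted p = 3.1e-04), opposite in sign to Aqp4. Car14, the membrane-bound carbonic anhydrase of Müller glia and pigment epithelium, fell from 87.2 ± 3.47 to 37.6 ± 10.1 CPM (SD, n = 3), at -1.22 (adjusted p = 0.018), the same sign as Car2. Slc16a1, a monocarboxylate transporter, was at -0.66 (adjusted p = 4.3e-04). Among the higher ones was Slc12a2, a sodium-potassium-chloride cotransporter, with aged libraries at 118 ± 11.3 CPM against 97.1 ± 4.10 CPM (SD, n = 3), or 0.28 on the log2 scale (adjusted p = 0.037), a gene picked with its values known.

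Of 17 other Müller glia markers tested, 4 rose and 4 fell by the adjusted p, with a median of 0.07. Clu, the secreted chaperone clusterin, rose from 381 ± 63.9 to 927 ± 175 CPM (SD, n = 3), a log2 fold change of 1.28 (edgeR adjusted p = 0.0096). Mlc1, a membrane protein of glial end feet, rose by 0.88 (adjusted p = 0.0012). The largest decreases in this list were those of Car14 and Slc38a3, given above, since lists share some genes.

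Of 22 tested Notch and Wnt pathway genes, 2 fell and none rose by the adjusted p, a share near that of all genes, with a median of -0.16. Jag1, a Notch ligand that lens cells also express strongly, fell from 105 ± 6.34 to 51.8 ± 6.0 CPM (SD, n = 3), a log2 fold change of -1.02 (edgeR adjusted p = 1.8e-04), and was at 64.4 ± 2.57 CPM with 8-AG. The lens sums given above also differed between young and aged retina, and their part in the fall of Jag1 was not tested. Wif1, a secreted Wnt inhibitor, fell from 5.64 ± 0.207 to 2.17 ± 0.321 CPM (SD, n = 3), at -1.37 (adjusted p = 0.0017). Rbpj, the DNA-binding partner of Notch, was at 0.05 (adjusted p = 0.65), and the Notch targets Hes5 and Hey1 were at -0.26 (adjusted p = 0.63) and -0.25 (adjusted p = 0.47), named after their values were seen.

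Of the gliosis list, 14 of 15 tested genes rose by the adjusted p, with a median log2 fold change of 2.35. Gfap, the glial intermediate filament, lay between 21.1 and 33.3 CPM in young libraries and between 219 and 445 CPM in aged libraries, and its log2 fold change was 3.52 (edgeR adjusted p = 0.0087). Bcl3, an NF-κB cofactor, was at 3.76 (adjusted p = 9.98e-04), Socs3, the feedback inhibitor of STAT3 signalling, at 3.75 (adjusted p = 7.4e-04), and Osmr, the oncostatin M receptor, at 2.75 (adjusted p = 0.0023). Microglia and macrophage genes rose with them, 10 of 10 tested by the adjusted p, and their sum went from 41.1 to 42.6 CPM to 123 to 211 CPM, with Aif1 at 1.70 to 2.48 CPM in young and 5.96 to 11.7 CPM in aged retina. Astrocytes also make Gfap, which is itself in the astrocyte list. The sum of that list, Gfap included, was 1169 to 1263 CPM at 4 months and 1363 to 1683 CPM at 24 months. Of its 7 tested genes, 2 passed the test, Gfap and S100b. The sum is therefore not a measure of astrocytes apart from Gfap. Beside these changes, the members stayed within 1 log2 unit.

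**Figure D3:**
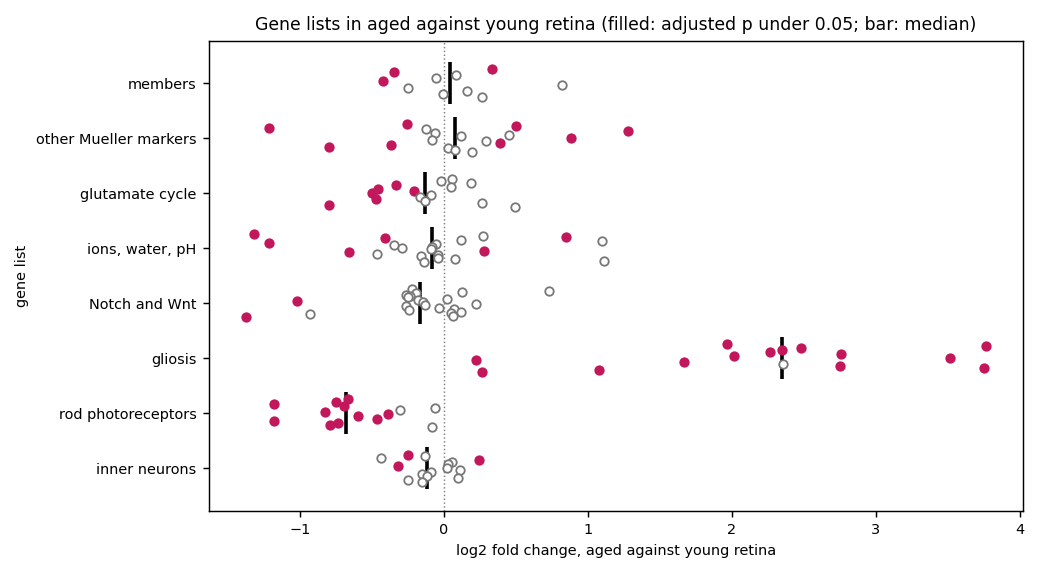
Log2 fold changes of aged against young retina for the genes of 8 lists, 1 point per gene, filled where the adjusted p is under 0.05, with black bars at the medians. The members lie between -0.42 and 0.82, while gliosis genes have a median of 2.35 and rod genes one of -0.68.

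With 8-AG, no member passed the test in aged retina. Against untreated aged retina, 0 of the 10 members had an adjusted p under 0.05 by edgeR, beside 0.0205% of 14631 genes. By DESeq2 0 did, beside 0.123%. By edgeR 0 counted by the study's rule, beside 0.957%, and 0 had an unadjusted P under 0.05, beside 3.67%. The treated and untreated libraries overlapped for all 10 members, where 8.64% of all genes did not overlap. The log2 fold changes ran from -0.51 to 0.17, with a median of -0.04 against 0.00 over all genes. For Glul the value was -0.06 (95% interval -0.29 to 0.17), for Slc1a3 -0.04 (-0.23 to 0.16), for Aqp4 -0.02 (-0.21 to 0.17) and for Kcnj10 -0.06 (-0.30 to 0.18). Those intervals leave out changes larger than about 0.30 on the log2 scale, but not smaller ones. Car2 was the highest, at 0.17 (-0.05 to 0.38), with 1 treated library at the level of the untreated ones. Hes1, at -0.51 (-1.27 to 0.25), had the widest interval, and without aged library 3, the lowest of the untreated libraries, its value was -0.74 and met the study's rule, beside 0.963% of all genes, while without 8-AG library 2 it was -0.28. The 8-AG label of total RNA and the treatment cannot be told apart in this comparison.

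Set against young retina, which the aged comparison shares as its control, 2 of the 10 members passed the test in 8-AG-treated aged retina, beside 14.9% of all genes. Glul was at -0.48 (SE 0.08, edgeR adjusted p = 0.0030), Aqp4 at 0.32 (SE 0.07, adjusted p = 0.014) and Kcnj10, which did not pass, at -0.30 (SE 0.10, adjusted p = 0.074) on the log2 scale. For these 3 genes no treated library overlapped a young one, beside 35.5% of 14542 genes. Car2 was at -0.18 (95% interval -0.39 to 0.03, adjusted p = 0.25) and Hes1 at 0.32 (-0.26 to 0.89, adjusted p = 0.45), so neither passed the test that compares treated aged with young retina. This comparison was added after the data had been seen.

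The RPE/choroid libraries have to be described before the members in them, since their levels of rod transcripts differed widely. Their rod sums were 18739, 20726 and 2139 CPM for young, 12102, 740 and 17377 CPM for aged and 57271, 993 and 965 CPM for 8-AG-treated rats, against 37053 to 64756 CPM in retina itself. 8-AG library 1 stood apart: its rod sum was 128% of the mean of the 8-AG-treated retina libraries, its muscle genes summed to 31904 CPM against 126 to 3383 CPM in the other 8 libraries, and its endothelial and melanocyte sums, at 632 and 772 CPM, lay under 3320 to 7185 and 6202 to 17574 CPM in the others. Its pigment epithelium genes, as its label has it, summed to 4971 CPM, above the 2387 to 4212 CPM of the other 8 libraries and the 96.0 to 360 CPM of retina. 8-AG library 3 had a rod sum of 2.16% and an inner neuron sum of 18.3% of treated retina, and held 219 CPM of a short list of ciliary body genes (Optc, Zic4, Best2 and Col9a1, chosen after the values were seen), where the other 8 libraries held 1.45 to 24.5 CPM. The 8-AG comparison in RPE/choroid is therefore given with all libraries, without each of these and without both.

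**Figure D4:**
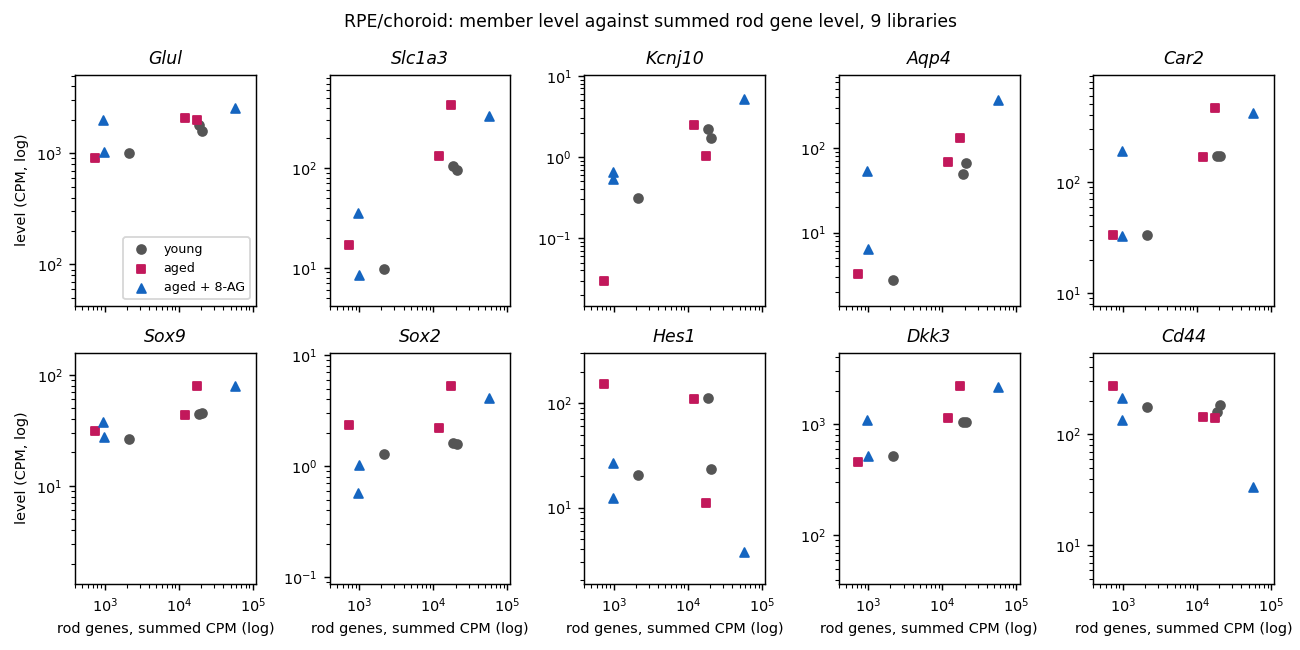
Level of each member in the 9 RPE/choroid libraries (CPM, log axis) against the summed level of rod genes in the same library (CPM, log axis), 1 point per library, with colours and symbols for the groups. Slc1a3, Kcnj10 and Sox9 were lower in the 4 libraries with the least rod RNA than in all other 5. How many of all genes separate these libraries was not counted. Cd44 was lowest in the library with the most rod RNA.

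In RPE/choroid, libraries of the same group differed widely in the levels of members such as Slc1a3. Slc1a3 was at 105, 94.5 and 9.74 CPM in young, 131, 17.1 and 431 CPM in aged and 334, 8.40 and 35.6 CPM in 8-AG-treated rats. The 4 libraries with rod sums of 740 to 2139 CPM held 8.40 to 35.6 CPM of it, and the other 5 held 94.5 to 431 CPM. Each group has libraries of both kinds, so its groups overlapped.

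Kcnj10, near the counting limit in this tissue, had 66, 63 and 15 counts in young, 77, 1 and 31 in aged and 170, 19 and 30 in 8-AG-treated libraries, or at most 5.20 CPM. It lay between 0.0295 and 0.658 CPM in the same 4 libraries and between 1.04 and 5.20 CPM in the other 5. Sox9 was at 44.7, 45.4 and 26.4 CPM in young, 43.3, 30.9 and 79.1 CPM in aged and 78.6, 27.4 and 37.5 CPM with 8-AG. It also separated the same libraries, at 26.4 to 37.5 CPM against 43.3 to 79.1 CPM, over a narrower range than Slc1a3. The share of all genes that separate these libraries in this way was not counted.

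Aqp4 was at 49.7, 67.2 and 2.73 CPM in young, 68.9, 3.22 and 130 CPM in aged and 370, 6.37 and 53.0 CPM with 8-AG. Of the libraries poor in rod transcripts, 3 held under 7 CPM of Aqp4, but 8-AG library 3, the one with ciliary body genes, held 53.0 CPM. Car2 was also lowest in those 3 libraries, with 173, 173 and 33.3 CPM in young, 167, 33.2 and 464 CPM in aged and 417, 32.6 and 192 CPM with 8-AG. In 8-AG library 3 Car2 stood at 52.9% and Aqp4 at 18.0% of the mean of treated retina, while its rod sum stood at 2.16%.

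Where rod transcripts were few, Sox9, Glul and Dkk3 stood at a larger share of their retina levels than Slc1a3 and Aqp4. Glul was at 1810, 1588 and 999 CPM in young, 2067, 908 and 1988 CPM in aged and 2559, 1030 and 2002 CPM with 8-AG. In aged library 2, where the rod sum was 1.88% of that of aged retina, Sox9 was at 84.4%, Glul at 45.4% and Dkk3 at 25.7% of their retina means, against 4.12% for Slc1a3 and 1.08% for Aqp4. Young library 3 had the same order, with Sox9 at 86.5%, Glul at 37.1%, Dkk3 at 28.0%, Slc1a3 at 2.62% and Aqp4 at 1.15% of young retina, and a rod sum of 3.40%. Glutamine synthetase is made in many tissues, and the cells that gave these transcripts were not measured. Dkk3 itself ranged over 455 to 2205 CPM, with 1050, 1045 and 514 CPM in young, 1142, 455 and 2205 CPM in aged and 2140, 521 and 1097 CPM in 8-AG-treated rats.

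Cd44 and Hes1 stood higher in most RPE/choroid libraries than in retina. Cd44 was at 159, 184 and 178 CPM in young, 144, 272 and 140 CPM in aged and 33.6, 213 and 136 CPM with 8-AG. Its lowest level was that of 8-AG library 1, the library closest to retina in its rod sum, and in the other 8 it was 247% to 505% of the retina mean of the same group. Hes1 was at 112, 23.6 and 20.4 CPM in young, 109, 153 and 11.0 CPM in aged and 3.73, 26.8 and 12.2 CPM with 8-AG, and its high values followed neither group nor rod sum. Sox2 was low in this tissue, at 1.60, 1.59 and 1.28 CPM in young, 2.23, 2.33 and 5.27 CPM in aged and 4.10, 1.03 and 0.570 CPM with 8-AG. Retina and RPE/choroid libraries were prepared and counted differently, so these shares of the retina level are descriptions across separately normalized tables.

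No member passed the adjusted threshold in RPE/choroid. In aged against young rats, 0 of the 10 members had an adjusted p under 0.05 by edgeR, beside 0% of 16047 genes. By DESeq2 0 did, beside 0.212%. By edgeR 1 member had an unadjusted P under 0.05, beside 2.13%. That member was Sox2, with a log2 fold change of 1.13 (SE 0.42, unadjusted P = 0.036, adjusted p = 1.0), which met the study's rule beside 1.35% of all genes. For Sox2 no young library reached an aged one, beside 7.19% of all genes without overlap and 2.89% higher without overlap. Of the members 9 had values above 0 and 1 below, with a median of 0.65 where that of all genes was 0.02. The intervals were wide: Glul was at 0.17 (95% interval -0.77 to 1.12), Slc1a3 at 1.46 (-1.62 to 4.53), Aqp4 at 0.75 (-2.71 to 4.22) and Car2 at 0.80 (-1.66 to 3.26). Without aged library 3, which had the highest Slc1a3, Dkk3, Sox9, Sox2 and Car2 of all RPE/choroid libraries, the median was -0.01, Sox2 was at 0.62 and no longer met the study's rule, and the values of Slc1a3, Aqp4, Dkk3, Sox9 and Car2 were 0.10, -0.13, -0.11, -0.06 and -0.32. Without young library 1, 2 or 3, 0 members met the study's rule, beside 1.44%, 1.31% and 1.39% of all genes, and Sox2 was at 1.17, 1.17 and 1.01. With each pair of libraries that share a number in their labels summed, 0 members met it, beside 1.18% of all genes, and Sox2 was at 1.37. Hes1, at 0.82, was at 0.22 without aged library 2 and at 2.05 without young library 1.

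A further fit took as covariate the mean log2 level of the rod genes in each library, which leaves 3 residual degrees of freedom. In it 0 members passed the adjusted threshold by edgeR, beside 0.00623% of all genes. By the study's rule 5 members counted as changed in aged against young RPE/choroid, beside 7% of all genes. These were Slc1a3 at 1.92, Aqp4 at 1.43, Sox2 at 1.2, Car2 at 1.08 and Dkk3 at 0.66 on the log2 scale, with a lowest adjusted p of 0.27.

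In 8-AG-treated against untreated aged RPE/choroid, 0 of the 10 members passed the adjusted threshold by edgeR, beside 0% of 16257 genes. By DESeq2 0 passed, beside 0.252%. By edgeR 0 met the study's rule, beside 1.65%, and 0 had an unadjusted P under 0.05, beside 1.69%. All 10 overlapped between the groups, where 3.99% of all genes did not, and 5 values were above 0 and 5 below. Hes1 had the largest difference, at -2.67 (95% interval -5.43 to 0.09, unadjusted P = 0.056, edgeR adjusted p = 1.0), and stayed below 0 without 8-AG library 1, at -2.22. It met the study's rule without 8-AG library 2, at -3.50 beside 4.37% of all genes, and without aged library 3, beside 1.54%. The median of the members, -0.02, was -1.0 without 8-AG library 1, where Sox2 met the study's rule at -2.04 (SE 0.63, adjusted p = 0.93 by edgeR), beside 3.35% of all genes. Without it Aqp4 went from 1.16 to -1.20, Slc1a3 from -0.54 to -3.15, Car2 from 0.00 to -0.99 and Glul from 0.21 to -0.13 on the log2 scale. Without 8-AG libraries 1 and 3 together, an alternative chosen after the data were seen that leaves 1 treated library, the median was -1.48. Without 8-AG library 3 alone the median was 0.05 and 0 members met the study's rule, beside 1.38% of all genes. Hes1 was then at -2.57, Sox2 at -0.34 and Slc1a3 at -0.16.

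**Figure D5:**
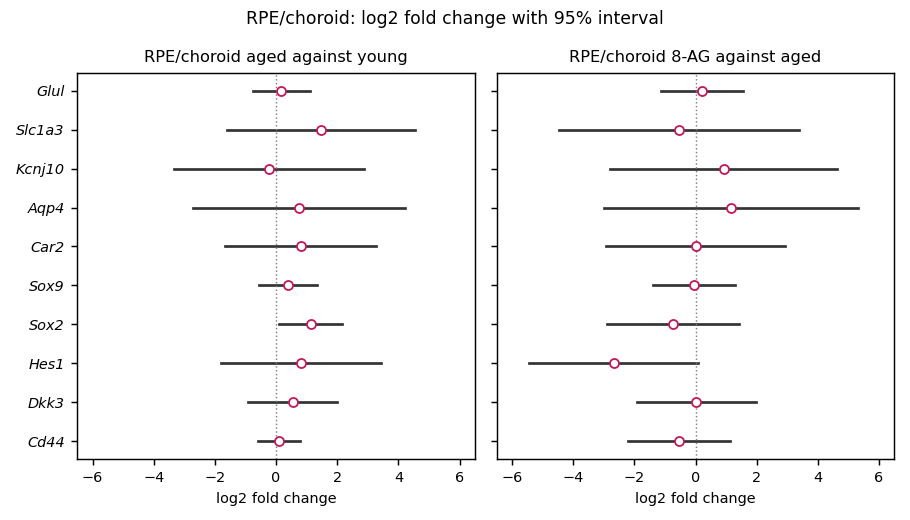
Log2 fold changes of the 10 members in RPE/choroid, aged against young and 8-AG-treated against untreated aged, with 95% intervals from the edgeR fit. No point is filled, since no adjusted p is under 0.05, and intervals such as that of Slc1a3 in aged against young, -1.62 to 4.53, are wider than any in retina.

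The aging change was also compared between tissues with an interaction term in edgeR over 16792 genes. Of the 10 members 0 had an adjusted p under 0.05, beside 0.161% of all genes, and 1 had an unadjusted P under 0.05, beside 8.25%. That was Sox2, whose retina change minus its RPE/choroid change was -1.12 (SE 0.40, unadjusted P = 0.018, adjusted p = 0.41) on the log2 scale. For Glul, lower in aged retina and not in RPE/choroid, the difference was -0.59 (SE 0.43, adjusted p = 0.88), so that its retina change was not shown to differ from that in RPE/choroid.

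The genes closest to each member in their course over the 9 retina libraries were found among 14875 genes, by the root mean square (RMS) difference in log2 CPM centred on each gene's mean. For Glul, whose own SD was 0.25, they were Cry2, a circadian repressor, and Ddhd1, a phospholipase, at RMS differences of 0.056 and 0.057. Among the genes closest to Aqp4 was Pcsk2, a prohormone convertase, at 0.056, beside its own SD of 0.18. For Car2 they were Aifm1, a mitochondrial flavoprotein, at 0.042, and Pde6a, a subunit of the rod phosphodiesterase, at 0.047. Slc1a3 was closest to Map2k1 (0.027) and Apba2 (0.030), Kcnj10 to Cpt1c (0.056) and Gpatch2l (0.062), and Dkk3 to Pcnp (0.024) and Ywhae (0.027). Sox9 was closest to AABR07049085.1 (0.082) and Rasd2 (0.095), Sox2 to Il17d (0.058) and Dpp6 (0.060), and Cd44 to Polg (0.072) and Actb (0.075). The widest gap was that of Hes1, at 0.16 to Ung and 0.23 to Chsy3, beside its own SD of 0.50. These are descriptions over 9 libraries that share 3 groups, without a test. No member was among the closest genes of another member.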

How the data were processed

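Bulk poly-A RNA-seq of retina and RPE/choroids was analysed with 3 libraries per group and tissue (young, untreated aged and 8-AG-treated); RPE/choroid libraries were made with enrichment for full-length transcripts because of low yield. For retina the authors deposited a table of RSEM expected counts, 11.5% of which are not whole, and it was rounded to whole numbers. For RPE/choroid they deposited raw counts. Per the submitters' processing notes, Bowtie2 2.1.0, RSEM 1.2.15, edgeR and Rnor_6.0 were used, with no role or order stated. Gene symbols for both tissues came from the gene names beside the gene IDs in the authors' RPE/choroid comparison tables. A deposited retina table of TMM-normalized signal values made by the authors was matched to the counts by value. It served to check the symbols and added 512. Of 12507 genes named both ways, 12437 had the same symbol (99.4%). The authors' own comparison tables hold fold changes and p-values, which were not used. The retina count table names its treated columns Compound, which were taken as the 8-AG group, the only treatment the labels give. The age of young rats is 4 months per the labels, while the study's figure legends give a younger age.

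For each comparison its 6 libraries were fitted over the whole table with edgeR 4.0.16 in R 4.3.3: filterByExpr, TMM, estimateDisp, glmQLFit with robust=TRUE and glmQLFTest, with Benjamini-Hochberg adjustment over all genes tested. SE is the absolute log2 fold change over the square root of F. Genes rose or fell where the adjusted p was under 0.05. Exact permutation of 3 against 3 libraries cannot go below p = 0.1. The fit was tested on simulated data. Replicates of each group differed by more than sampling noise (chi-square per degree of freedom of 6.14 to 1460). Alternatives were RLE factors, DESeq2 1.42.0, other filters, all groups in 1 fit, the replicate number as block, unrounded counts, summed libraries that share a label number, a rod covariate, limma 3.58.1 for the interaction, and each library left out. Named genes were all members, up to 4 genes per glial list with an adjusted p under 0.05 and an average log2 CPM not under 1, and Rpe65, Gfap and Aif1 among other cell types; some genes this rule or the likeness measure named are not reported here. The members, lists and rules were chosen with earlier results of these data known. Promoters were read from RefSeq (GRCr8) by symbol, with 7 of 10 members matched. Transcript lengths were not used, so levels are not compared between genes. Figures were drawn with matplotlib 3.10.9.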

Additional observations from a re-analysis of the deposited data

How the results depend on the processing

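Every retina member had at least 114 counts per library, and the part of counting depth was not tested. Kcnj10 and Sox2 were near the counting limit in RPE/choroid, at 1 to 170 and 26 to 157 counts per library. In aged against young retina the members called at the adjusted p numbered 2 to 4, and Glul and Car2 kept their calls under every alternative run. Aqp4 lost its call without young library 1 or 2, and Hes1 gained one with DESeq2 (0.82, adjusted p = 0.0048), with the replicate number as a block and without aged library 3. With 1 library left out, 0 to 1 members met the study's rule, in both tissues and both contrasts. In retina 7.44% to 9.23% of all genes met it in aged against young, and 0.963% to 1.73% in 8-AG-treated against aged. In RPE/choroid these shares were 1.31% to 2.54% and 0.513% to 4.37%. Over all genes, the calls in aged against young retina fell from 2122 to 1336 without young library 1 and 1245 without young library 2. In 8-AG-treated against untreated aged retina 3 genes became 18 with DESeq2, 10 with no filter and 0 with at least 10 counts in every library, with the block, or with aged library 1, aged library 3 or 8-AG library 2 left out. DESeq2 called 34 genes in aged against young and 41 in the 8-AG comparison of RPE/choroid, where edgeR called 0, and the rod covariate gave 1 in the first. The cause of these shifts was not tested.

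The replicate numbers were not taken to pair the libraries, since not every pair's correlation was over 0.1. Deviations of same-numbered retina libraries correlated at -0.08 to 0.10, with 6 of 6 libraries of the 8-AG and aged retina groups closest to their own number, a hint from the data only, and RPE/choroid correlations ran from -0.58 to 0.65. With the block, 4 members were called in aged against young retina, beside 11.6% of all genes (Hes1 0.79, adjusted p = 0.0063), 0 in the other comparisons, beside 0% of all genes, and 0 met the study's rule in aged against young RPE/choroid, beside 0.86%, where the median was 0.32.

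By the study's rule, aged against young RPE/choroid had 0 members with all groups in 1 fit, beside 0.788% of all genes. It had 0 with libraries that share a number summed (1.18%) and 5 with the rod covariate (7%). 8-AG-treated against aged RPE/choroid had 1 with DESeq2 (beside 3.44% of all genes), no filter (2.21%) or all groups in 1 fit (2.8%), and 2 with the rod covariate (6.78%). Values near 0 changed sign. In aged against young these were Sox2 in retina with at least 10 counts in every library (0.0041), Cd44 in RPE/choroid with summed libraries (-0.012) or the rod covariate (-0.090), and Kcnj10 there with the covariate (0.0070). In 8-AG-treated against aged RPE/choroid they were Car2 with no filter (-0.012), all groups (-0.040) or summed libraries (-0.35), and Dkk3 with all groups (-0.0085) or summed libraries (-0.21). Without 8-AG libraries 1 and 3 together the median was -1.48, with Glul at -0.69, Aqp4 -3.41, Kcnj10 -1.16, Dkk3 -1.29, Car2 -2.77 and Cd44 0.20.

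With each library left out in turn, members whose value changed sign or moved by over 1.5 times ran as follows. In aged against young retina Sox2 ran from -0.080 to 0.063, Cd44 from -0.0014 to 0.20, Sox9 from 0.17 to 0.37 and Dkk3 from -0.090 to -0.029, and the median from -0.041 to 0.13. In retina of treated against untreated aged rats the median ran from -0.078 to 0.034, Glul from -0.15 to 2.1e-04, Slc1a3 from -0.078 to 0.044, Aqp4 from -0.079 to 0.056, Kcnj10 from -0.11 to 0.024, Sox9 from -0.26 to 0.11, Cd44 from -0.090 to 0.12, Dkk3 from 0.049 to 0.12, Sox2 from -0.18 to -0.0092, Car2 from 0.11 to 0.27 and Hes1 from -0.74 to -0.28. In aged against young RPE/choroid the median ran from -0.013 to 0.81, Glul from -0.051 to 0.46, Aqp4 from -0.13 to 1.35, Kcnj10 from -1.41 to 0.33, Dkk3 from -0.11 to 0.93, Sox9 from -0.058 to 0.65, Car2 from -0.32 to 1.31, Cd44 from -0.29 to 0.27, Slc1a3 from 0.097 to 1.99, Sox2 from 0.62 to 1.33 and Hes1 from 0.22 to 2.05. In 8-AG-treated against aged RPE/choroid the median ran from -1.0 to 0.55, Glul from -0.13 to 0.50, Slc1a3 from -3.15 to 0.84, Aqp4 from -1.20 to 2.06, Kcnj10 from -1.0 to 2.04, Dkk3 from -0.66 to 0.69, Sox9 from -0.66 to 0.41, Car2 from -0.99 to 1.15, Sox2 from -2.04 to -0.22 and Cd44 from -1.12 to -0.094.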
